A study of Drosophila melanogaster with 12 samples.

Results

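Transcripts of the gap and head patterning genes were examined in RNA bound to immunoprecipitates from Drosophila embryos. The genes were chosen by symbol alone (hb, Kr, kni, knrl, gt, tll, hkb, otd, btd and ems), and 9 of the 10 symbols had a row in both tables of counts, among 15682 genes in the first and 17559 in the second. The symbol otd had no row. The head gene formerly called otd is listed under its current name, ocelliless (oc), and is described with the other head genes. All 9 transcripts passed the minimum count in both experiments.

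RNA was isolated from the bound fraction of lysates of embryos aged 1.5 to 3 h, and the samples fell into 4 groups. In the antibody experiment, lysate of wild-type embryos was precipitated with Slam antibody (3 libraries) or, as a control, with antibody against the formin Dia (4 libraries). In the GFP-binder experiment, a single-chain GFP antibody was added to lysate of GFP-slam transgenic embryos (2 libraries, replicates 1 and 3) or of wild-type embryos (3 libraries). These wild-type libraries are titled OrR, and the study's methods name OregonR as the wild-type flies of another experiment. GFP-slam is a genomic transgene with GFP at the start of the Slam protein, so that its expression follows the regulatory sequence of slam. The bait protein Slam marks the tip of the furrow that closes around each nucleus of the blastoderm, and slam mRNA is found at the same place. Each comparison asks which transcripts were bound with Slam above the control, and the patterning genes are largely zygotic transcripts of the same embryos.

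Gap genes are the first zygotic genes of the segmentation cascade. They encode transcription factors, which read the maternal gradients along the anterior-posterior axis, repress each other in the syncytial blastoderm and position the stripes of the pair-rule genes. Terminal gap genes are switched on at both poles by the receptor Torso, and the head gap genes specify overlapping parts of the head.

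The antibody libraries held between 4383704 (Dia 3) and 31647090 counts and the GFP-binder libraries between 20170936 and 47249817. The lowest count of any of the 9 transcripts in a library was 34 (ems in Dia 1). The slam transcript was higher with Slam antibody than with Dia antibody (log2 ratio 6.29, SE 0.767, edgeR adjusted p = 0.00421). It was also higher in GFP-slam than in wild type (log2 ratio 4.03, SE 0.253, edgeR adjusted p = 8.07e-05). These values are RNA, whereas the bait is the Slam protein, which the study detected by western blot. GFP-slam embryos also carry the slam sequence of the transgene, and its part in the slam counts was not tested. The transcript of dia was lower with Slam antibody than with Dia antibody by a log2 ratio of -3.45 (SE 0.545, adjusted p = 0.00664). Among markers of the stage, all 7 blastoderm markers were kept in the antibody experiment and 6 of 7 in the GFP-binder experiment, where Sry-alpha was listed at 0 to 0.0691 CPM (counts scaled to library size). Sry-alpha had 154 to 519 CPM in the antibody libraries, and how reads of this gene were counted in each table is not known, so that the blastoderm sums of the 2 experiments are not comparable. Summed over the 8 eggshell markers of follicle cells, the level was between 0 and 0.983 CPM in every library.

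Of the 9 transcripts, 1 was bound at a higher level with Slam antibody than with Dia antibody, and none at a lower level (edgeR quasi-likelihood test, adjusted p under 0.05). The transcript was that of huckebein (hkb), a zinc finger factor of the terminal system that sets the limits of the mesoderm and the gut primordia. Over all 7466 genes kept, 10.5% passed this test, 6.84% as higher and 3.62% as lower with Slam antibody. Levels are given here as CPM after TMM normalization, with 1 value for each library in the order of its replicate number, and ratios as the fitted log2 of Slam antibody over Dia antibody.

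The hkb transcript had 44.6, 38.4 and 43.5 CPM with Slam antibody, against 17.4, 7.7, 22.7 and 12.2 CPM with Dia antibody. All 3 libraries with Slam antibody lay above all 4 with Dia antibody, which was the case for 15.2% of all genes kept (12.2% lay below, 27.4% in either direction) and for 1 of these 9. The means were 42.2 ± 3.31 CPM with Slam antibody and 15 ± 6.48 CPM with Dia antibody (SD, n = 3 and 4), and the fitted log2 ratio was 1.51 (SE 0.321, 95% interval 0.81 to 2.21, adjusted p = 0.0136), a 2.85-fold difference. An exact permutation test of the CPM gave a two-sided p of 0.0571, the smallest that 3 libraries against 4 allow. The ratio ranked 608 of 7466, so that many transcripts had a higher one. The call was lost without Slam 1 (log2 ratio 1.44, adjusted p = 0.0560). It was also lost without Slam 3 and Dia 4 together (log2 ratio 1.27, adjusted p = 0.0668). The gene lies on chromosome arm 3R, at 4345015 to 4346646 in a table deposited by the authors that names no build, and overlaps no other annotated gene.

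**Figure D1:**
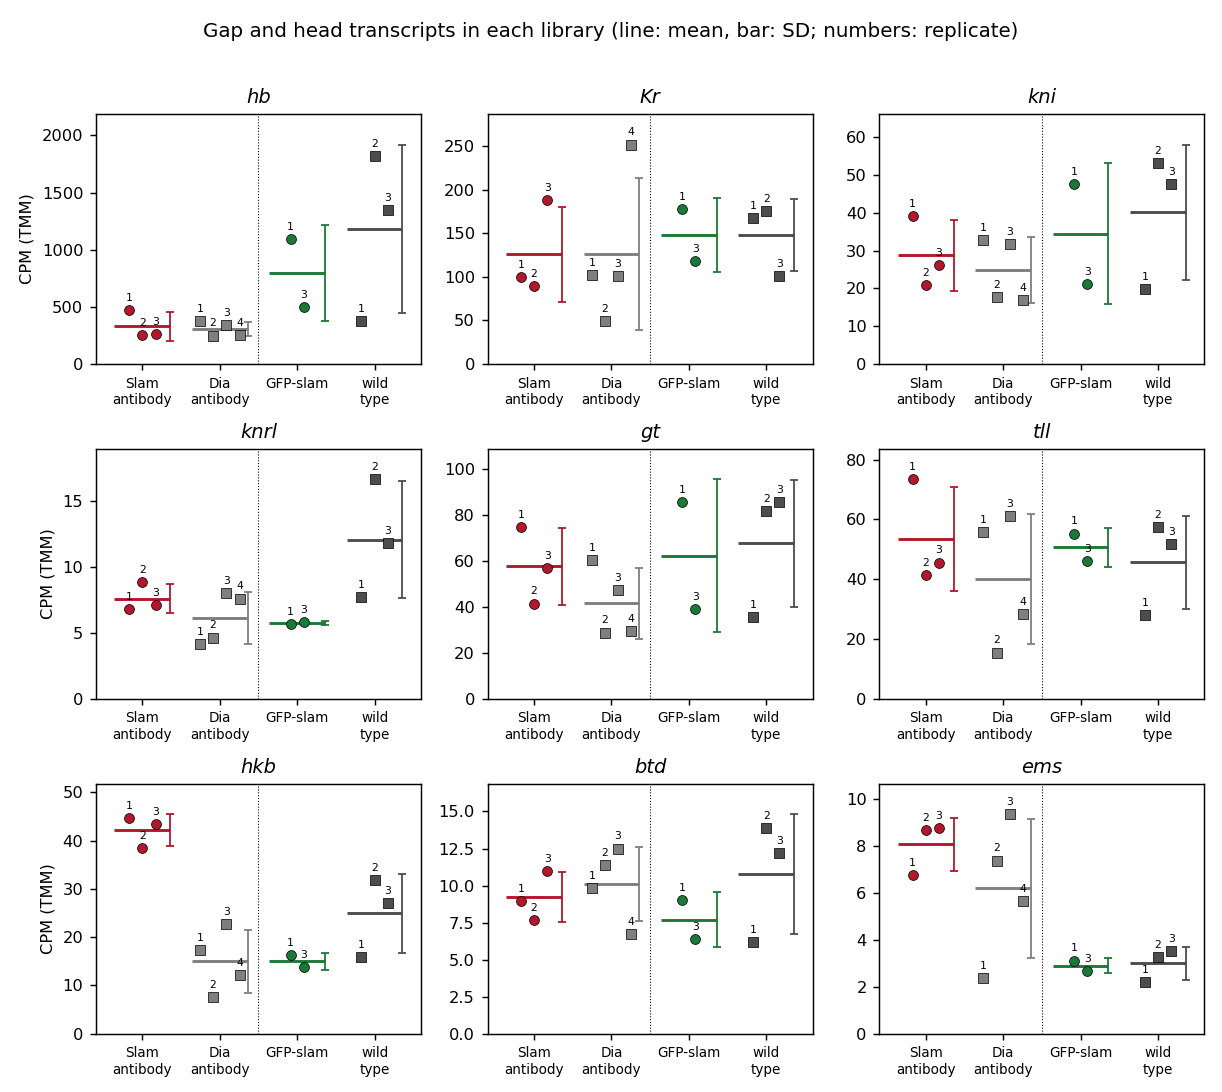
Level of each of the 9 transcripts in each library, in CPM after TMM normalization within its experiment (vertical axes start at 0 and differ between genes). Points are libraries with their replicate number, lines are means and bars SDs. The 3 Slam antibody libraries of hkb, at 38.4 to 44.6 CPM, stand clear of the 4 Dia antibody libraries, at 7.7 to 22.7 CPM, whereas the points of the other 8 transcripts overlap between these groups.

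Tailless (tll), an orphan nuclear receptor that acts with hkb at both poles, did not pass the test. It had 73.4, 41.4 and 45.6 CPM with Slam antibody, against 55.7, 15.5, 61 and 28.3 CPM with Dia antibody. The groups overlapped, with Slam 1 highest and Dia 2 lowest, and the log2 ratio was 0.43 (SE 0.43, 95% interval -0.54 to 1.39, adjusted p = 0.551). The 2 terminal gap genes thus had intervals that overlap, and their ratios were not tested against each other.

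Hunchback (hb), a zinc finger factor of the anterior that is both supplied by the mother and transcribed by the zygote, was among the more evenly bound. Its levels were 476, 251 and 263 CPM with Slam antibody, against 377, 249, 341 and 253 CPM with Dia antibody. Slam 1 was highest and the other libraries with Slam antibody lay within the range of the Dia antibody libraries (log2 ratio 0.11, SE 0.27, 95% interval -0.48 to 0.70, adjusted p = 0.815). Counts per gene do not separate the maternal from the zygotic transcripts of hb.

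Krüppel (Kr), the zinc finger factor of the central domain, varied most between libraries of the same antibody. It had 100, 89.4 and 188 CPM with Slam antibody, against 102, 49.8, 101 and 252 CPM with Dia antibody. The high libraries were Slam 3 and Dia 4, and Dia 2 was lowest. The fitted log2 ratio was -0.01 with an SE of 0.525 (95% interval -1.22 to 1.20, adjusted p = 0.994), an interval that holds a difference of 2-fold in either direction. Its sign depended on the libraries used and was 0.58 without Dia 4. Kr lies on arm 2R and overlaps the gene CG9380. No source used here states whether counting was by strand, and reads of the overlap cannot be assigned.

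Giant (gt), a leucine zipper factor with an anterior and a posterior domain, had 74.6, 41.4 and 56.7 CPM with Slam antibody, against 60.4, 28.8, 47.4 and 29.3 CPM with Dia antibody. The lowest library with Slam antibody lay below 2 of the 4 libraries with Dia antibody, and the groups overlapped (log2 ratio 0.48, SE 0.297, 95% interval -0.17 to 1.12, adjusted p = 0.307). Knirps (kni), a member of the nuclear receptor family that acts in the abdomen and the head, had 39.1, 21 and 26.1 CPM with Slam antibody, against 32.8, 17.7, 31.8 and 16.8 CPM with Dia antibody. Slam 1 was again the highest library, and the groups overlapped (log2 ratio 0.22, SE 0.318, adjusted p = 0.684). The gene next to it on arm 3L, knirps-related (knrl), encodes a close relative of the Knirps protein. The knrl transcript had 6.83, 8.81 and 7.1 CPM with Slam antibody, against 4.18, 4.64, 8.01 and 7.59 CPM with Dia antibody. Here Dia 3 and Dia 4 fell among the Slam antibody libraries and Dia 1 and Dia 2 below them (log2 ratio 0.32, SE 0.477, adjusted p = 0.697). No source used here states how reads that match both genes were counted.

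The head gap genes buttonhead (btd), a zinc finger factor, and empty spiracles (ems), a homeodomain factor, did not pass either. The btd transcript had 8.96, 7.67 and 11 CPM with Slam antibody, against 9.83, 11.4, 12.5 and 6.74 CPM with Dia antibody, with all libraries with Slam antibody inside the range of the control (log2 ratio -0.13, SE 0.393, adjusted p = 0.859). The ems transcript had 6.78, 8.69 and 8.76 CPM with Slam antibody, against 2.37, 7.38, 9.35 and 5.67 CPM with Dia antibody. Dia 1 was the low library and Dia 3 the highest of all (log2 ratio 0.40, SE 0.53, adjusted p = 0.657). The third head gap gene, oc, had 29.4, 19.2 and 17.2 CPM with Slam antibody, against 13, 5.53, 38.5 and 10.8 CPM with Dia antibody. Dia 3 exceeded every library with Slam antibody, and the log2 ratio of 0.40 (SE 0.554, adjusted p = 0.670) did not pass.

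Over the 9 transcripts, the median log2 ratio of Slam antibody over Dia antibody was 0.32, and over all genes kept it was -0.03 (0.37 over all genes with no minimum count). The median of the 9 was 0.03 without Dia 2, 0.12 without Slam 1 and between 0.23 and 0.37 without any 1 of the other libraries, and 0.18 without Slam 3 and Dia 4. The ratio was above 0 for 7 of the 9, where 47.7% of all genes were above 0. The 9 values come from the same 7 libraries and are not independent of each other.

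In the GFP-binder experiment, none of the 9 transcripts passed the test for GFP-slam over wild type. Over all 8767 genes kept, 0.753% passed it, 0.525% as higher and 0.228% as lower in GFP-slam. An unadjusted p under 0.05 was reached by 2 of the 9, hkb and knrl, both with lower levels in GFP-slam, and by 5.95% of all genes. DESeq2 likewise gave 0 adjusted calls among the 9 and 2 at the unadjusted threshold.

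The hkb transcript, which was higher with Slam antibody, had 16.3 and 13.8 CPM in GFP-slam, against 15.9, 31.8 and 27.1 CPM in wild type. GFP-slam 1 lay just above wild type 1, and the other wild-type libraries lay above both from GFP-slam. The log2 ratio was -0.73 (SE 0.323, 95% interval -1.45 to -0.00, unadjusted p = 0.0489 and adjusted p = 0.829, edgeR). The knrl transcript had 5.63 and 5.83 CPM in GFP-slam, against 7.73, 16.6 and 11.8 CPM in wild type. Its groups did not overlap, as for 17.4% of all genes (8.98% higher and 8.42% lower in GFP-slam), and the log2 ratio was -1.07 (SE 0.377, 95% interval -1.91 to -0.23, unadjusted p = 0.0182 and adjusted p = 0.484, edgeR). With 2 libraries against 3, an exact two-sided permutation test cannot give a p below 0.200.

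Of the other transcripts, hb differed most within a group. It had 1090 and 495 CPM in GFP-slam, against 374, 1822 and 1349 CPM in wild type, and its log2 ratio of -0.58 had an SE of 0.665 (95% interval -2.16 to 1.0). Wild type 1 was below both GFP-slam libraries and the other wild-type libraries above both.

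Wild type 1 was also the lowest of the 5 libraries for gt and kni. The gt transcript had 85.6 and 38.8 CPM in GFP-slam, against 35.7, 81.7 and 85.3 CPM in wild type (log2 ratio -0.12, SE 0.448), both higher wild-type libraries lying below GFP-slam 1. The kni transcript had 47.6 and 21.2 CPM in GFP-slam, against 19.7, 53.1 and 47.6 CPM in wild type (log2 ratio -0.22, SE 0.484). For both, GFP-slam 3 lay close to wild type 1 and GFP-slam 1 close to wild type 3.

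The tll transcript had 55.3 and 46 CPM in GFP-slam, against 28.1, 57.4 and 51.7 CPM in wild type (log2 ratio 0.15, SE 0.317). Kr had 178 and 118 CPM in GFP-slam, against 168, 176 and 101 CPM in wild type (log2 ratio -0.00, SE 0.319), and it was the only transcript of the 9 for which wild type 3 was the lowest wild-type library.

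Among the head genes, btd had 9 and 6.39 CPM in GFP-slam, against 6.21, 13.9 and 12.2 CPM in wild type (log2 ratio -0.49, SE 0.395). The ems transcript had 3.12 and 2.68 CPM in GFP-slam, against 2.2, 3.28 and 3.51 CPM in wild type (log2 ratio -0.05, SE 0.486). The groups of gt, kni, tll, Kr, btd, ems and hb overlapped, and the adjusted p was 1 for each (edgeR). For oc the levels were 11.4 and 8.53 CPM in GFP-slam, against 8.71, 9.57 and 14.2 CPM in wild type (log2 ratio -0.12, SE 0.33, adjusted p = 1).

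The median log2 ratio of the 9 transcripts was -0.22 for GFP-slam over wild type, against 0.02 over all genes kept. The ratio was above 0 for 1 of the 9 (tll), where 53.3% of all genes were above 0. The median was -0.80 without GFP-slam 1, 0.02 without GFP-slam 3, -0.58 without wild type 1, -0.03 without wild type 2 and -0.23 without wild type 3, and with replicate number as a block it was 0.05.

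**Figure D2:**
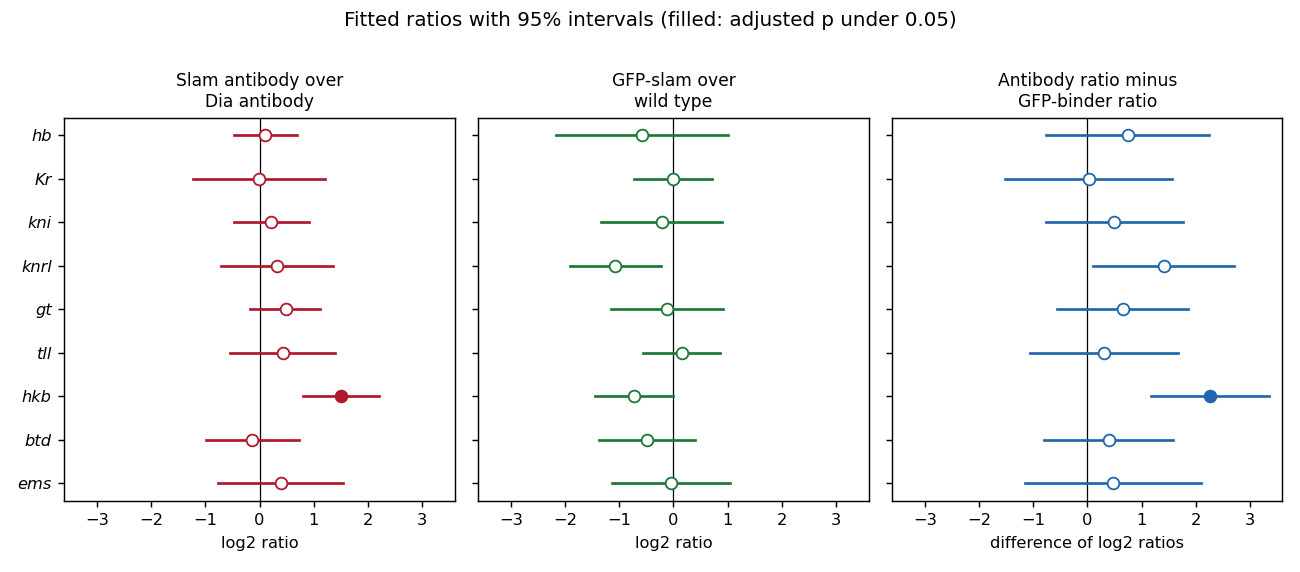
Fitted log2 ratios of the 9 transcripts with 95% intervals, for Slam antibody over Dia antibody, for GFP-slam over wild type, and for the first ratio minus the second. Filled points have an adjusted p under 0.05, which only hkb reached, with 1.51 in the first panel and 2.27 in the third.

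For hkb the ratio passed with Slam antibody, and that of GFP-slam over wild type was negative without passing. The 2 log2 ratios were therefore tested against each other in a fit of all 12 libraries. The antibody ratio is part of this difference, so that the choice of hkb favoured a positive one. The antibody ratio exceeded the GFP-binder ratio by 2.27 for hkb (SE 0.509, 95% interval 1.18 to 3.35, edgeR adjusted p = 0.0244). Of 7197 genes kept in both experiments, 3.32% passed this test, 2.67% with a higher and 0.653% with a lower antibody ratio, and hkb was the 1 of 9 that did. The adjusted p was 0.0564 without Slam 1, 0.120 without GFP-slam 1, 0.0953 without GFP-slam 3, 0.0684 without wild type 2, 0.0507 without wild type 3 and 0.0802 without Slam 3 and Dia 4, with differences of 2.04 to 2.31.

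For knrl the difference was 1.41 (SE 0.607, 95% interval 0.11 to 2.70, unadjusted p = 0.0349 and adjusted p = 0.222, edgeR). For the other 7 transcripts it lay between 0.03 (Kr) and 0.74 (hb), with adjusted p of 0.569 or more. The experiments differed in bait, precipitation matrix, control and table of counts, and these cannot be told apart.

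Scaled together over the 12 libraries, the 4 groups were in no common order for the 9 transcripts. The hkb transcript was highest with Slam antibody (42.9 ± 3.39 CPM), followed by wild type (26.4 ± 9.01 CPM), GFP-slam (15.7 ± 0.711 CPM) and Dia antibody (15.2 ± 6.58 CPM; SD, n = 3, 3, 2 and 4). The Slam antibody libraries lay above all others, and GFP-slam and Dia antibody overlapped. GFP-slam and wild type were separated on this scale only narrowly, with 16.2 CPM in GFP-slam 1 and 16.4 CPM in wild type 1, and overlapped when scaled within their experiment.

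For hb the order was wild type (1255 ± 795 CPM), GFP-slam (812 ± 378 CPM), Slam antibody (335 ± 129 CPM) and Dia antibody (310 ± 65.2 CPM). Here GFP-slam lay above Slam antibody without overlap, with 544 CPM in its lower library, against 484 CPM in the highest library with Slam antibody, and the other neighbours overlapped. For each of the other 7 transcripts, every group overlapped with its neighbour in the order. The share of all genes with groups that separate on this scale was not computed. The lowest means of ems were those of the GFP-binder experiment (GFP-slam 3.02 ± 0.0978 CPM and wild type 3.17 ± 0.778 CPM), against 8.21 ± 1.13 CPM with Slam antibody and 6.29 ± 3.01 CPM with Dia antibody.

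Most of the 9 transcripts were high or low in the same libraries. Relative to the mean of each gene over its experiment, on the log2 scale, all 9 were above their mean in wild type 2 and all 9 below it in GFP-slam 3. Wild type 1 was below for 8 of the 9 and wild type 3 above for 8. The share of all genes above or below their means in these libraries was not computed. Whether these counts are particular to the 9 is thus not known. In Slam 1 the transcripts of hb (0.63), kni (0.63), gt (0.70) and tll (0.83) lay above their means by similar amounts, whereas Kr (-0.16) and btd (-0.09) did not. In Dia 2 the lowest were hkb (-1.54), tll (-1.41) and Kr (-1.17). Kr departed from the others, with 1.17 in Dia 4, a library in which 7 of the 9 were below their mean.

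**Figure D3:**
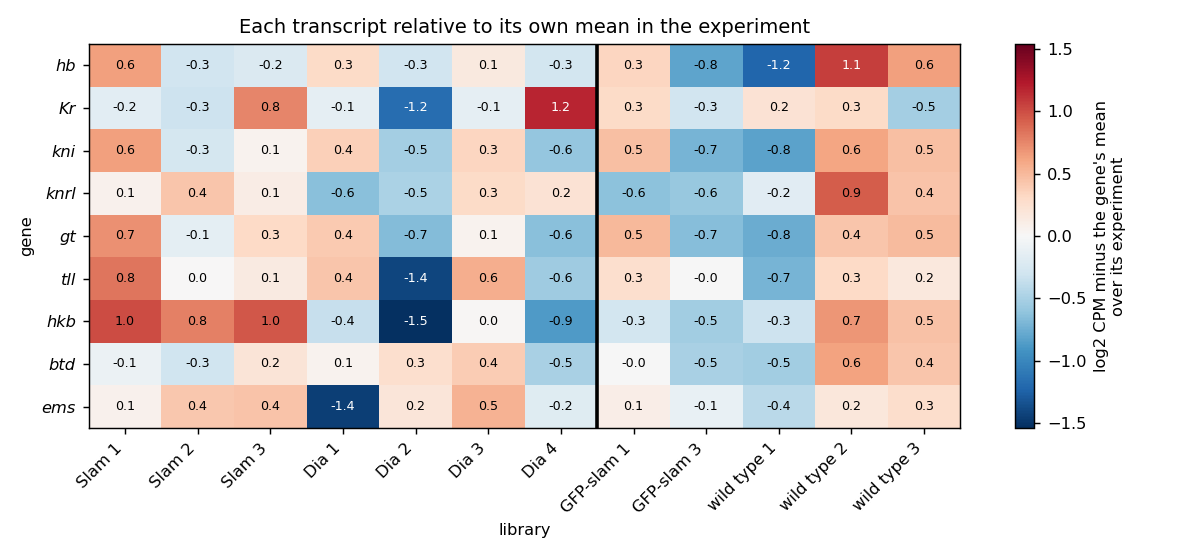
Log2 CPM of each transcript (rows) in each library (columns) minus the mean of that transcript over its experiment; red is above and blue below the mean, and the black line divides the antibody from the GFP-binder experiment. The hkb row is red in the 3 Slam antibody libraries (between 0.78 and 1), the column of GFP-slam 3 has no value above 0, and that of wild type 2 none below 0.

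The correlation of each transcript with the mean profile of the 9 was computed over the 12 libraries after centring on each experiment. Pearson's r was 0.878 for gt, 0.877 for kni, 0.83 for hkb, 0.823 for hb and 0.798 for tll. It was 0.646 for knrl, 0.619 for btd, 0.351 for ems and 0.243 for Kr, each transcript being part of the mean. Among the other 7188 genes kept in both experiments, the most similar profiles were those of Flo1 (r = 0.925), Diap2 (r = 0.921) and twi (r = 0.906). These values are descriptions, since the genes were measured in the same libraries, which differed in depth and in the antibody or lysate used.

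Markers of the blastoderm and of other cells also varied between libraries. The summed level of the 7 blastoderm markers was 800 to 1177 CPM with Slam antibody, against 376 to 933 CPM with Dia antibody, with the lowest sum in Dia 2, and 1 of the 7, nullo, was higher with Slam antibody (log2 ratio 2.00, SE 0.217, adjusted p = 1.48e-04). Over the 6 kept in the GFP-binder experiment and Sry-alpha, the sum was 251 to 355 CPM in GFP-slam, against 211 to 504 CPM in wild type, with the lowest sum in wild type 1. The 4 markers of pole cells and germ plasm summed to 1243 to 1461 CPM with Slam antibody, against 1370 to 2277 CPM with Dia antibody, and to 1628 to 1981 CPM in GFP-slam, against 1167 to 1863 CPM in wild type.

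The 7 markers of differentiated cells of later embryos summed to 159 to 642 CPM with Slam antibody, against 150 to 1997 CPM with Dia antibody. Dia 1 had the highest sum. With Dia antibody, Mhc reached 1351 CPM and Act57B 480 CPM, so that the sum does not weigh the 7 alike. Of the 5 kept, 0 passed in either direction, and elav was the 1 with a log2 ratio above 0 (0.44). In the GFP-binder experiment they summed to 47.7 CPM in GFP-slam 1 and 384 CPM in GFP-slam 3, against 88.5 to 309 CPM in wild type. The part of staging or of these cells in the levels of the 9 transcripts was not tested. Fewer nuclei that express a gene, less RNA for each of them and less RNA bound cannot be told apart in these libraries.

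Around the gap genes in the cascade, 4 lists of genes were read in the same fits. Of all 7466 genes kept in the antibody experiment, 6.84% were higher and 3.62% lower with Slam antibody. These were 511 and 270 genes, which rose to 782 and 636 with replicate number as a block. Further calls with the block came with this general rise. The maternal and terminal inputs, which set up the gradients and the Torso signal, had 12 of 14 genes kept in the antibody experiment, of which 0 were higher and 1 lower with Slam antibody (median log2 ratio -0.32). The lower one was vfl, which encodes Zelda, the factor that opens the zygotic genome for transcription. It had 147 to 277 CPM with Slam antibody, against 314 to 647 CPM with Dia antibody (log2 ratio -1.32, SE 0.295, adjusted p = 0.0179). The call for vfl was lost without Slam 2 (adjusted p = 0.0774) or Slam 3 (adjusted p = 0.0652). With replicate number as a block, cad passed as well (log2 ratio -0.63, adjusted p = 0.0451, against 0.0663 without it), so that 2 of the 12 were lower. The genes below the minimum count were trk and the terminal gene tsl. The tsl transcript had 2.98 to 9.03 CPM with Slam antibody, against 0 to 0.279 CPM with Dia antibody. It was kept and passed as higher with both other minimums and without any 1 of the Dia antibody libraries. Its counts came almost wholly from the Slam antibody libraries, the group where it was high. Being kept and being called higher were thus not separate, and these calls are no support for a difference.

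Of the 13 other head, terminal and gap-like genes, all kept, 2 were higher and 1 was lower with Slam antibody (median log2 ratio 0.40). With replicate number as a block, which raised the calls over all genes as well, 4 were higher and 1 lower. The further 2 were the POU domain genes nub (log2 ratio 1.06, adjusted p = 0.0101) and pdm2 (log2 ratio 1.08, adjusted p = 0.0157). Without the block they had adjusted p of 0.138 and 0.373. The transcript of cas, a zinc finger factor known from the temporal series of neuroblasts, had 18.4 to 27.3 CPM with Slam antibody, against 2.54 to 5.12 CPM with Dia antibody (log2 ratio 2.67, SE 0.373, adjusted p = 9.76e-04). The transcript of slp1, a forkhead factor of the head and the segments, had 86.1 to 95.5 CPM with Slam antibody, against 20.7 to 45.4 CPM with Dia antibody (log2 ratio 1.63, SE 0.25, adjusted p = 0.00212). Both passed under each of 15 alternatives, with adjusted p of 1.59e-09 to 0.0156 for cas and 2.14e-06 to 0.0160 for slp1.

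The lower one was fkh, a forkhead factor of the gut ends, with 5.93 to 8.84 CPM with Slam antibody, against 13.1 to 33.2 CPM with Dia antibody (log2 ratio -1.37, SE 0.377, adjusted p = 0.0396). The call for fkh was lost without any 1 of Slam 1, Slam 2, Slam 3 and Dia 3 (adjusted p = 0.115, 0.101, 0.0774 and 0.0560). It was also lost without Slam 3 and Dia 4 together (adjusted p = 0.0522).

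Among the 7 pair-rule genes, which the gap proteins regulate, 1 was higher and 0 lower with Slam antibody (median log2 ratio 0.24). It was h (hairy), a transcriptional repressor, with 62.8 to 78.2 CPM with Slam antibody, against 18.4 to 33.6 CPM with Dia antibody (log2 ratio 1.46, SE 0.234, adjusted p = 0.00272), and it passed under all 15 alternatives. Of the corepressors with which gap and pair-rule proteins act, 6 of 7 had a row and were kept, 0 were higher and 1 was lower (median log2 ratio -0.43). This was Gug, which encodes Atrophin, with 113 to 244 CPM with Slam antibody, against 226 to 472 CPM with Dia antibody (log2 ratio -1.13, SE 0.319, adjusted p = 0.0428). The call for Gug was lost without any 1 of Slam 2, Slam 3, Dia 1 and Dia 2 (adjusted p = 0.158, 0.147, 0.102 and 0.0575). With the block, 2 of the 6 were lower, Gug and the chromatin remodeller gene Mi-2 (log2 ratio -0.80, adjusted p = 0.0128, against 0.189 without it).

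In the GFP-binder experiment, 0 genes of the 4 lists passed in either direction, where 0.753% of all 8767 genes kept did. The median log2 ratios were 0.08 for the 14 maternal and terminal inputs, -0.31 for the 13 head, terminal and gap-like genes, -0.11 for the 7 pair-rule genes and -0.16 for the 6 corepressors. The lowest p of each list belonged to nos, which encodes a translational repressor of maternal hb (log2 ratio 0.46, SE 0.312), pdm2, (-0.98, SE 0.397), the pair-rule gene ftz (-0.98, SE 0.417) and the histone deacetylase gene Rpd3 (-0.36, SE 0.42). Their adjusted p were 1, 0.681, 0.770 and 1 (edgeR), and the unadjusted p of pdm2 and ftz were 0.0342 and 0.0422.

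For the genes of these lists that were higher with Slam antibody, the ratios of the 2 experiments were compared. These genes were picked by their antibody ratio, which is part of the difference. The choice thus favoured a positive difference, which is no separate finding. The antibody ratio of hkb likewise enters its difference. The difference of the log2 ratios was 3.20 for cas (edgeR adjusted p = 0.0113), 2.52 for slp1 (adjusted p = 0.0137) and 1.56 for h (adjusted p = 0.0417), beside the 2.27 of hkb. In the GFP-binder experiment itself, slp1 had 14.7 to 21.7 CPM in GFP-slam, against 16.4 to 48.7 CPM in wild type (log2 ratio -0.86, SE 0.425, adjusted p = 0.970). The cas transcript had 2.31 to 2.88 CPM in GFP-slam, against 2.25 to 4.94 CPM in wild type, and h had 21.2 to 21.9 CPM in GFP-slam, against 15.5 to 27.4 CPM in wild type. The difference lost its call for cas without GFP-slam 1 (adjusted p = 0.0928) or without Slam 3 and Dia 4 (adjusted p = 0.0506), and for slp1 without GFP-slam 1 or GFP-slam 3 (adjusted p = 0.0527 and 0.0831). For h it was lost with total counts (adjusted p = 0.0601), without Slam 3 and Dia 4 (adjusted p = 0.107) and without any 1 library other than Dia 3 and wild type 1. The adjusted p of h was then 0.0917, 0.0813 and 0.0679 without Slam 1, Slam 2 and Slam 3, 0.0557, 0.0862 and 0.0545 without Dia 1, Dia 2 and Dia 4, 0.199 and 0.107 without GFP-slam 1 and GFP-slam 3, and 0.102 and 0.0846 without wild type 2 and wild type 3.

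**Figure D4:**
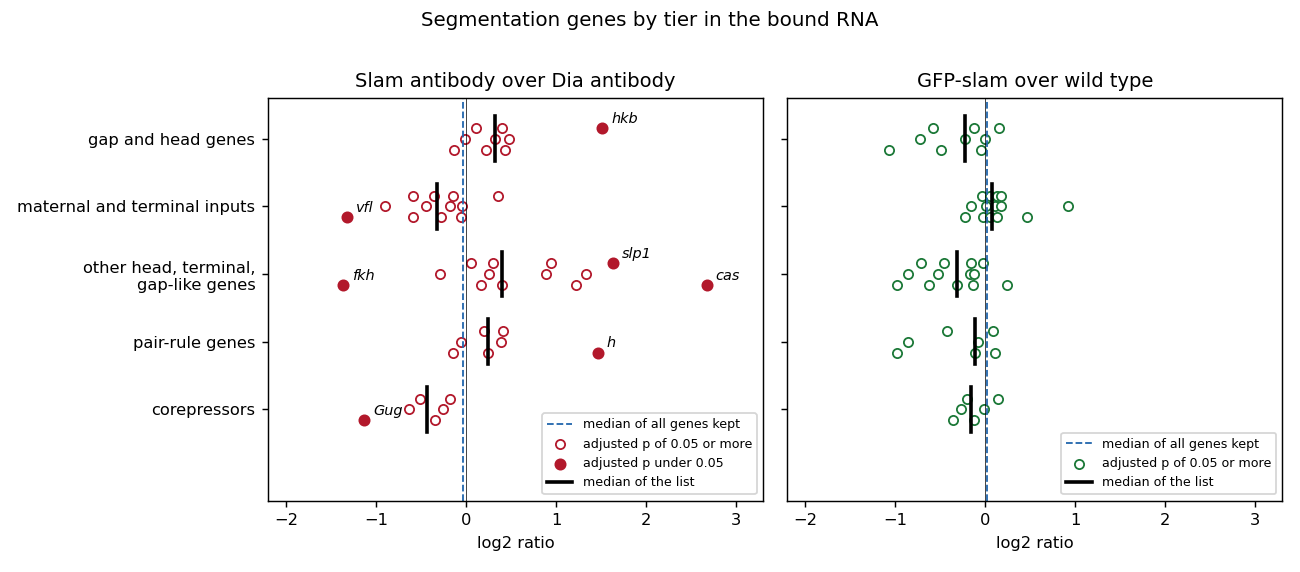
Fitted log2 ratios of the 9 gap and head transcripts and of the 4 lists of related genes, with 1 point per gene kept, in the antibody (left) and GFP-binder experiment (right). Filled points have an adjusted p under 0.05, black bars are the medians of the lists, and the dashed line is the median of all genes kept. With Slam antibody, hkb, cas, slp1 and h lie to the right and vfl, fkh and Gug to the left, while the right panel has no filled point.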

How the data were processed

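The deposited tables hold whole-number counts of reads per gene in each library, made by the authors. Tools named in the submitters' processing notes are STAR 2.5.0, bcl2fastq 2.17.1.14, DESeq2 and FastQC 0.11.4, with no roles. No source used here gives the annotation, the genome build, the counter or the use of strand. A deposited table of the authors' comparison was read for coordinates only. Of its 1649 genes matched by name, 99.9% share a start or end with Release 6, from which arms and overlaps were taken. Of the 15682 and 17559 genes, 394 and 7 were named by identifier, and 1 identifier was corrected. A total of 0 columns of counts were left unused.

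The 2 experiments had a fit each in R 4.3.3 with edgeR 4.0.16 (TMM, robust glmQLFit, glmQLFTest), on genes whose normalized counts averaged 50 or more with the antibodies and 10 or more with the GFP-binder, after the minimums in the study's methods, and p-values were adjusted over all genes kept (Benjamini-Hochberg, 0.05). SEs were taken from the log2 ratio and the F statistic (ratio over root F). The 2 ratios were compared in a fit of 12 libraries. Permutation tests used scipy 1.17.1 (Python 3.11.15, numpy 2.4.6, pandas 2.3.3) and figures matplotlib 3.10.9. Fits were tested on simulated data. Replicates, which the methods call biological, differed by more than counting error (58.7 to 473 in chi-square per degree of freedom), so that depth alone does not give the precision. For the profiles, 0.5 was added to CPM.

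Alternatives were RLE, total counts, DESeq2 1.42.0, other minimums, a replicate block, 1 fit of all libraries, each library left out and, chosen after seeing the data, Slam 3 and Dia 4 left out. Libraries of the same number in the antibody experiment had correlated deviations from group means (0.263, 0.393 and 0.125, although Slam 3 had 0.326 with Dia 4). Only the replicate block treats them as paired. The main fits, and the fit that compared the ratios of the experiments, had no replicate term.

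Named were all genes of the rule, slam, dia, genes of the lists that passed or had the lowest p in a comparison, and the 3 most similar profiles. CG9380, the markers named, cad, nub, Mi-2, slp2, trk and tsl were named after their values were seen. Members and lists were chosen with earlier results of these data known.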

Additional observations from a re-analysis of the deposited data

Results flagged for a closer look

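The log2 ratios of hkb had opposite signs in the experiments, and a test of their difference passed. The log2 ratio of Slam antibody over Dia antibody exceeded that of GFP-slam over wild type by 2.27 (SE 0.509, edgeR adjusted p = 0.0244, range 0.00176 to 0.120 over 17 alternatives). The ratio was 1.51 with the antibodies, with all 3 libraries with Slam antibody above all 4 with Dia antibody. With the GFP-binder it was -0.73 and did not pass by itself (edgeR adjusted p = 0.829). There, 1 of 3 wild-type libraries fell between those of GFP-slam, and a lower level in GFP-slam was not established. The antibody ratio of hkb is part of the difference, so that a positive difference was favoured. The test of a library far from its group covered only the 12 sets of 4 values with Dia antibody (the 9 transcripts, oc, slam and dia) and found 0. With 4 values such a test has little power, and the smaller groups were not tested, so that no conclusion is drawn. Kr had 252 CPM in Dia 4, against 49.8 to 102 CPM in the other Dia antibody libraries. In Slam 1, slam had 119176 CPM, against 36523 and 32099 CPM in Slam 2 and Slam 3.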

How the results depend on the processing

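The count of gap and head transcripts that passed with Slam antibody was 0 to 1 when single libraries were left out (0 without Slam 1) and 0 without Slam 3 and Dia 4, and 1 under every other alternative. The count whose ratios differed between the experiments was 0 to 1 when single libraries were left out and 0 without Slam 3 and Dia 4. The count for GFP-slam over wild type was 0 throughout. The log2 ratio of hkb stayed between 1.17 and 1.66 over 15 alternatives (adjusted p 7.83e-04 to 0.0668). With replicate number as a block, hkb had a ratio of 1.54 (adjusted p = 0.00621) and the number passing was still 1, and the pairing changed no call among the 9, while in the 4 lists it added nub and pdm2 (higher) and cad and Mi-2 (lower) to the calls. With DESeq2, slp2 was added as higher and cad and nos as lower. With total counts, cad was added as lower. The tsl transcript was added as higher with both other minimums and without any 1 of the Dia antibody libraries, being kept through its Slam antibody libraries. The nos transcript was added as lower with no minimum count and without Dia 3. In the GFP-binder experiment, deviations of same-numbered libraries correlated at 0.0876 and 6.79e-04, and these share only a number; the block gave 75 genes higher and 58 lower, against 46 and 20 without it. The calls over all genes moved with the setting, to 782 higher and 636 lower with the block, 772 and 494 with DESeq2 and 803 and 361 with no minimum count for the antibodies, against 511 and 270, and to 109 and 87 with DESeq2 and 121 and 165 with no minimum count for the GFP-binder. With total counts the split for the antibodies was 457 higher and 416 lower. With no minimum count the median of all genes was 0.37, above the 0.32 of the 9 transcripts.

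Signs turned where no call was made, and the values below are those that turned, with the range over single libraries left out. For Slam antibody over Dia antibody, Kr became 0.01 with DESeq2, 0.57 with the block and 0.05 without Slam 3 and Dia 4, and hb became -0.01 with the block. Leaving out single libraries gave Kr 0.12 (Slam 1), 0.19 (Slam 2) and 0.58 (Dia 4), hb -0.27 (Slam 1) and -0.09 (Dia 2), kni -0.09 (Slam 1) and -0.03 (Dia 2), and ftz 0.20 (Slam 2) and 0.31 (Dia 3), within ranges of -0.44 to 0.58, -0.27 to 0.28, -0.09 to 0.40 and -0.35 to 0.31. For GFP-slam over wild type, the block gave hb 0.05, Kr 0.16, kni 0.05, gt 0.06, ems 0.05 and h 0.12. Without GFP-slam 3, Kr was 0.24, kni 0.21, gt 0.31, ems 0.02, vfl 0.37, Gug 0.01 and Rpd3 0.02. Without wild type 1, Kr was 0.08 and tll -0.13. Without wild type 2, Kr was 0.10 and h 0.03. Without wild type 3, gt was 0.08, ems 0.07, vfl 0.36 and h 0.00. The ranges were -0.33 to 0.24 for Kr, -0.92 to 0.21 for kni, -0.80 to 0.31 for gt, -0.13 to 0.30 for tll, -0.25 to 0.07 for ems, -0.64 to 0.37 for vfl, -0.32 to 0.03 for h, -0.67 to 0.01 for Gug and -0.93 to 0.02 for Rpd3. The difference of the ratios became, for Kr, -0.02 with total counts and -0.38, -0.07, -0.33, -0.13, -0.18, -0.06 and -0.13 without Slam 3, Dia 1, Dia 2, Dia 3, GFP-slam 3, wild type 1 and wild type 2 (range -0.38 to 0.61). For Rpd3 it became -0.02 with total counts, -0.14 without Slam 3 and Dia 4, and -0.01, -0.19, -0.03, -0.30 and -0.31 without Slam 3, Dia 2, Dia 3, GFP-slam 3 and wild type 2 (range -0.31 to 0.53). For tll it was -0.07 without Dia 2 (range -0.07 to 0.57), and for btd -0.02 without Slam 3 and Dia 4. The cause of these changes was not tested.

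The limits are the 2 GFP-slam libraries, of which leaving out 1 leaves a single library assumed to vary like wild type, the depth of Dia 3, in which btd and ems had 56 and 42 counts, and the wide intervals, such as -2.16 to 1.0 for hb in GFP-slam over wild type and -1.52 to 1.57 for the difference of the ratios of Kr.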

Other observations

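The levels of hb were 374 to 1822 CPM in the GFP-binder libraries and 249 to 476 CPM in the antibody libraries, with an overlap through wild type 1. For the gene cad, which is supplied by the mother and acts in the posterior, those of the GFP-binder libraries lay above all of the antibody libraries. Within its experiment, cad had 1403 to 1916 CPM in GFP-slam, against 597 to 3614 CPM in wild type, and 184 to 212 CPM with Slam antibody, against 276 to 335 CPM with Dia antibody. The cad transcript was chosen after its values were seen, and levels across the experiments were not tested, since matrix and table cannot be told apart from bait.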
